A study of Mus musculus with 2 samples.

Results

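The 10 genes of branched-chain amino acid breakdown described here were followed in heart tissue, among 55536 annotated genes measured. They are named enzymes and regulators of the pathway, and were found by gene symbol and joined by gene identifier across the tables. The 10 genes were Bcat1, Bcat2, Bckdha, Bckdhb, Dbt, Bckdk, Ppm1k, Ivd, Acad8 and Hibch. The mice were adult males of 8 to 10 months, bred by crossing 5xFAD with CAST and supplied by The Jackson Laboratory. The 5xFAD line models Alzheimer's disease with transgenes for mutant human amyloid precursor and presenilin proteins under a promoter active in neurons, and CAST is an inbred strain of wild origin. There is a single group with 2 libraries, the biological replicates 1 and 2, referred to as library 1 and library 2. The labels name the cross for both and give no genotype beyond it, and no other group was analysed here, so no value below is an effect of the transgenes or the strain. The labels give separate tissue samples but 1 shared donor identifier, so the spread between libraries may be technical.

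Leucine, isoleucine and valine are broken down in mitochondria, largely outside the liver. A transaminase first moves the amino group to 2-oxoglutarate, giving glutamate and a branched-chain keto acid. The branched-chain keto acid dehydrogenase complex (BCKDH) then commits the carbon skeleton to oxidation, and it is switched off when a kinase phosphorylates it and on again by a phosphatase. Each skeleton then follows a branch of its own towards acetyl-CoA, acetoacetate or propionyl-CoA, which the heart can burn as fuel.

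Each library was made from 300 ng of total RNA after reduction of ribosomal RNA and held 39819960 and 37060119 expected counts in library 1 and library 2. An expected count is an estimated number of reads from a gene, with reads shared between genes or transcripts split by the estimation. Levels are given in TPM, which corrects for transcript length and library size and can be compared between genes. The authors deposited 2 sets of estimates in different table layouts for the same libraries, called the first and the second quantification, and values are from the first unless the second is named. The 10 genes took 36878 and 34027 of these counts. All 6 cardiomyocyte markers were high, with summed levels of 26102 and 25881 TPM. All 5 liver markers were below 1 TPM in both libraries, and the liver apolipoprotein and fibrinogen genes Apoa1 and Fgb were listed at 0. Of the 5 skeletal muscle markers, 2 were at 1 TPM or more in both libraries. These were Tnnt3 at 2.98 and 3.73 TPM and Myh4 at 2.09 and 2.56 TPM, while the regulator Myf6 was listed at 0. Of the 5 brain markers, 3 were below 1 TPM in both libraries, and the vesicular glutamate transporter Slc17a7 was at 13.8 and 18.6 TPM. Counts of the 2 libraries differed by more than sampling noise (chi-square over degrees of freedom 5.35, 17147 genes), and both were kept as separate libraries.

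In all, 9 of the 10 genes, all but Bcat1, were at 1 TPM or more in both libraries. The same level was reached by 10754 of 22015 nuclear protein-coding genes, which is 48.8%. The median of the 10 genes was 31.3 TPM, against 7.62 TPM for the detected nuclear protein-coding genes. The 10 genes summed to 554.85 and 554.70 TPM and held 0.170% of all nuclear protein-coding TPM in both libraries. Ivd alone made up 28.6% ± 0.70 of this sum, Bckdha 21.04% ± 0.35 and Bcat2 17.3% ± 0.72 (SD, n = 2). In bulk tissue, fewer cells that express a gene and less RNA of it per cell cannot be told apart.

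**Figure D1:**
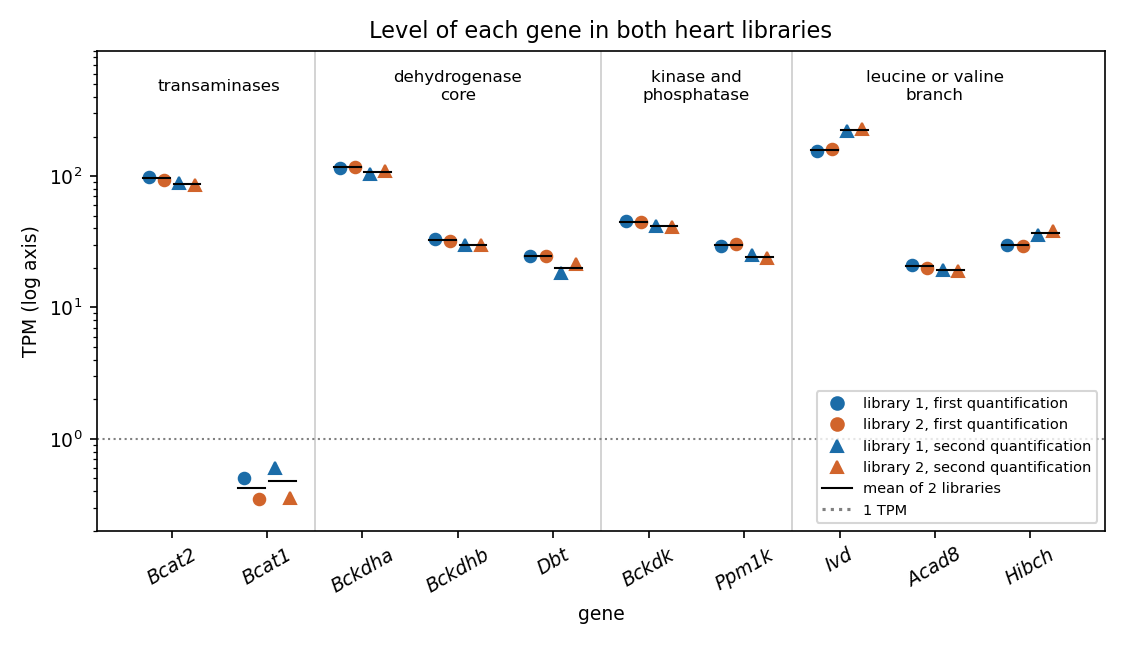
Level of each of the 10 genes in TPM on a log axis, grouped by role. Points are the single libraries, circles the first and triangles the second quantification, and bars are means of 2 libraries. Ivd, Bckdha and Bcat2 lie highest, and Bcat1 is the only gene below 1 TPM.

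Ordered by mean TPM, the genes ran Ivd, Bckdha, Bcat2, Bckdk, Bckdhb, Ppm1k, Hibch, Dbt, Acad8 and Bcat1. Ppm1k and Hibch were the only neighbours in this order whose libraries overlapped. The second quantification gave each gene a mean between 80.8% (Dbt) and 141% (Ivd) of the first. There Hibch, at 35.5 and 38.3 TPM, stood above Bckdhb and Ppm1k, and the libraries of Dbt and Acad8 overlapped.

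The mitochondrial transaminase was the dominant form. Bcat2, which encodes the mitochondrial branched-chain aminotransferase, lies at chr7:45570153-45589711 (mm10, plus strand) and had 99.1 and 93.4 TPM from 4105 and 3861 expected counts. Bcat1, which encodes the cytosolic form known mainly from brain, lies at chr6:144993835-145076184 on the minus strand and had 0.50 and 0.35 TPM. These Bcat1 values rest on 16 and 19 counts, with exact 95% Poisson intervals of 9.15 to 26.0 and 11.4 to 29.7 counts. All Bcat2 values lay far above all Bcat1 values. The Bcat2 to Bcat1 ratio of TPM was 198 in library 1 and 267 in library 2, a mean of 232 ± 48.6 (SD, n = 2). At so few counts no transcript of Bcat1 led in both libraries. Bcat1-209 led in library 1 and Bcat1-206 in library 2, and Bcat1-203, Bcat1-204 and Bcat1-205 reached 10% of Bcat1 TPM in at least 1 library.

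The subunits of BCKDH were unequal. Bckdha and Bckdhb encode the alpha and beta chains of the decarboxylase that acts on the keto acid. Bckdha (chr7:25629946-25658981, minus strand) had 115 and 118 TPM, and Bckdhb (chr9:83925145-84124240, plus strand) had 33.4 and 31.9 TPM. Dbt encodes the core acyltransferase that carries the acyl group on lipoate (chr3:116513070-116549981, plus strand) and had 24.6 and 24.7 TPM. Bckdha stood 3.58 ± 0.17 times as high as its partner Bckdhb and 4.73 ± 0.06 times as high as Dbt (SD, n = 2), and the libraries of the 3 genes did not overlap. The Bckdha to Dbt ratio was 5.37 ± 0.45 by the second quantification, 6.61 ± 0.62 with coding transcripts only and 3.36 ± 0.17 in expected counts. In expected counts, which have no length correction, Bckdhb lay below Dbt, at a ratio of 0.691 ± 0.007 (SD, n = 2).

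The related pyruvate dehydrogenase complex (PDH), which feeds pyruvate into the citric acid cycle and is built on the same plan, showed a smaller inequality. The ratio of alpha to beta chain TPM was 3.58 ± 0.17 for Bckdha over Bckdhb, against 1.32 ± 0.03 for Pdha1 over Pdhb (SD, n = 2). In the second quantification the ratios were 3.57 ± 0.07 for Bckdha over Bckdhb and 1.27 ± 0.01 for Pdha1 over Pdhb. In expected counts they were 4.87 for Bckdha over Bckdhb and 2.52 for Pdha1 over Pdhb. The summed level of the BCKDH core genes was 0.230 ± 0.0019 times that of the PDH core genes Pdha1, Pdhb and Dlat (SD, n = 2). Both complexes, and the 2-oxoglutarate dehydrogenase complex, share the third subunit Dld, which had 132 and 140 TPM. These comparisons are between genes within the same 2 libraries and carry no test.

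The switch on BCKDH is set by 2 of the genes. Bckdk, the kinase that inactivates the complex, lies at chr7:127904082-127910221 (plus strand) and had 45.2 and 44.8 TPM. Ppm1k, the mitochondrial phosphatase that reactivates it, lies at chr6:57506502-57535468 (minus strand) and had 29.5 and 30.5 TPM. With all transcripts summed, the kinase was higher in both libraries, with a Bckdk to Ppm1k ratio of 1.5 ± 0.04 (SD, n = 2). In raw expected counts the order turned round, at 2432 and 2271 for Bckdk and 4526 and 4045 for Ppm1k, a measure with no length correction. The longest coding transcripts of the genes differ in length, with 4219 bases after the coding sequence in Ppm1k-201 and 1913 in Bckdk-201. Between these transcripts Bckdk was the lower in TPM, at 7.34 and 7.10 for Bckdk-201 and 24.8 and 23.4 for Ppm1k-201. Most Bckdk TPM lay in other forms described below, of which Bckdk-202 had 22.8 and 23.4 TPM. With all coding transcripts of both genes the ratio was 1.37.

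The PDH kinases Pdk1, Pdk2, Pdk3 and Pdk4 summed to 305 and 360 TPM and the PDH phosphatases Pdp1 and Pdp2 to 28.26 and 27.99 TPM. The kinase to phosphatase ratio was 1.5 ± 0.04 for Bckdk over Ppm1k, against 11.8 ± 1.5 for the summed PDH genes (SD, n = 2). Bckdk differed between the libraries by less than 1 TPM, while Pdk4 had 90.8 and 153 TPM in library 1 and library 2. Set against its substrate, Bckdk had 0.386 ± 0.009 of the TPM of Bckdha, and the 4 PDH kinases together had 0.936 ± 0.089 of that of Pdha1.

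The site on which both regulators act is in Bckdha, and its coding sequence is shown because it joins the kinase, the phosphatase and the complex. The stretch below is from the GENCODE M21 transcript Bckdha-201 (mm10, chr7:25631132-25631346, minus strand, spanning a splice junction), with the codon of the phosphorylated serine in capitals. It was found by translating the 446 codons and looking for a histidine, histidine, serine, threonine and serine in a row, which occur once, and the serine is residue 338 counted from the start of the precursor.
Bckdha-201 serine codon: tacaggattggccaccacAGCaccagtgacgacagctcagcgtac

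In the individual branches, leucine's dehydrogenase was the highest of all 10 genes when all transcripts were summed, and valine's was among the lowest. Ivd encodes isovaleryl-CoA dehydrogenase of the leucine branch (chr2:118861954-118882909, plus strand) and had 156 and 161 TPM, rank 302 of the 10754 detected nuclear protein-coding genes. With coding transcripts only, Ivd had 102 and 95.9 TPM, below Bckdha at 115 and 118 TPM. Acad8 encodes isobutyryl-CoA dehydrogenase of the valine branch (chr9:26974135-26999566, minus strand) and had 21.1 and 20.1 TPM, rank 2388. Acadsb, which acts at the same step for isoleucine, had 78.5 and 72.1 TPM. The 3 genes did not overlap, and Ivd stood 7.71 ± 0.47 times as high as Acad8 (SD, n = 2). The Ivd to Acad8 ratio was 11.7 ± 0.46 by the second quantification, 10.1 ± 1.7 with coding transcripts only and 11.2 ± 1.0 in expected counts (SD, n = 2). With coding transcripts only, the order of Acad8 and Acadsb turned round, at 9.05 and 10.8 TPM for Acad8 and 7.87 and 7.41 TPM for Acadsb. Hibch, which releases free 3-hydroxyisobutyrate later in the valine branch, lies at chr1:52844929-52920986 (plus strand) and had 30.1 and 29.4 TPM.

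Among the 11 acyl-CoA dehydrogenase genes listed, Ivd held 9.07% ± 0.09 of the summed TPM (SD, n = 2). The fatty acid enzymes Acadm, Acadvl and Acadl stood above it, at means of 523, 416 and 379 TPM. Acad10 was the lowest of the family at 8.16 ± 0.30 TPM, and had 2.07 TPM with coding transcripts only.

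The 10 genes had a median of 31.3 TPM, against 60.1 TPM for the 17 genes listed for later or shared steps, all of which were at 1 TPM or more in both libraries. The highest were Echs1, which hydrates enoyl-CoA in the valine and isoleucine branches, at 155 ± 4.6 TPM, and Dld at 136 ± 5.7 TPM. Acat1, which ends the isoleucine branch, had 130 ± 2.0 TPM, but 203.7 TPM by the second quantification. Mmab, needed to make the cobalamin cofactor of methylmalonyl-CoA mutase, was the lowest at 9.56 ± 1.1 TPM (SD, n = 2). With coding transcripts only, Mmaa, which works on the same cofactor, was lower still at 1.25 and 0.94 TPM, and Acadsb also lay below Mmab. The valine branch was not low throughout, since Hibadh, which oxidises the product of Hibch, had 87.4 and 83.6 TPM.

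Genes that handle the amino group after its transfer to glutamate spanned a wide range, and those that bring the amino acids in were low. The 6 amino group genes had a median of 109 TPM, with the aspartate transaminases Got1 at 328 ± 2.1 and Got2 at 251 ± 0.42 TPM. Glul, which makes glutamine, had 170 ± 13 TPM. The alanine transaminases Gpt at 25.9 ± 4.7 and Gpt2 at 10.8 ± 0.59 TPM lay below the median of the 10 genes (SD, n = 2). Of the 7 transport genes, 5 reached 1 TPM in both libraries and the median was 2.54 TPM. The highest was Slc3a2, the heavy chain of the exchangers, at 13.0 ± 0.11 TPM, but 20.2 TPM by the second quantification. Slc25a44, a carrier of branched-chain amino acids into mitochondria known from brown fat, had 4.37 and 4.39 TPM. Of the lipoate genes, Lias, which makes the cofactor that Dbt carries, had 18.6 ± 1.1 TPM and Lipt2 had 2.26 ± 0.38 TPM. Klf15, known in mouse heart as an activator of several of these genes, had 17.7 TPM in both libraries (SD, n = 2).

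**Figure D2:**
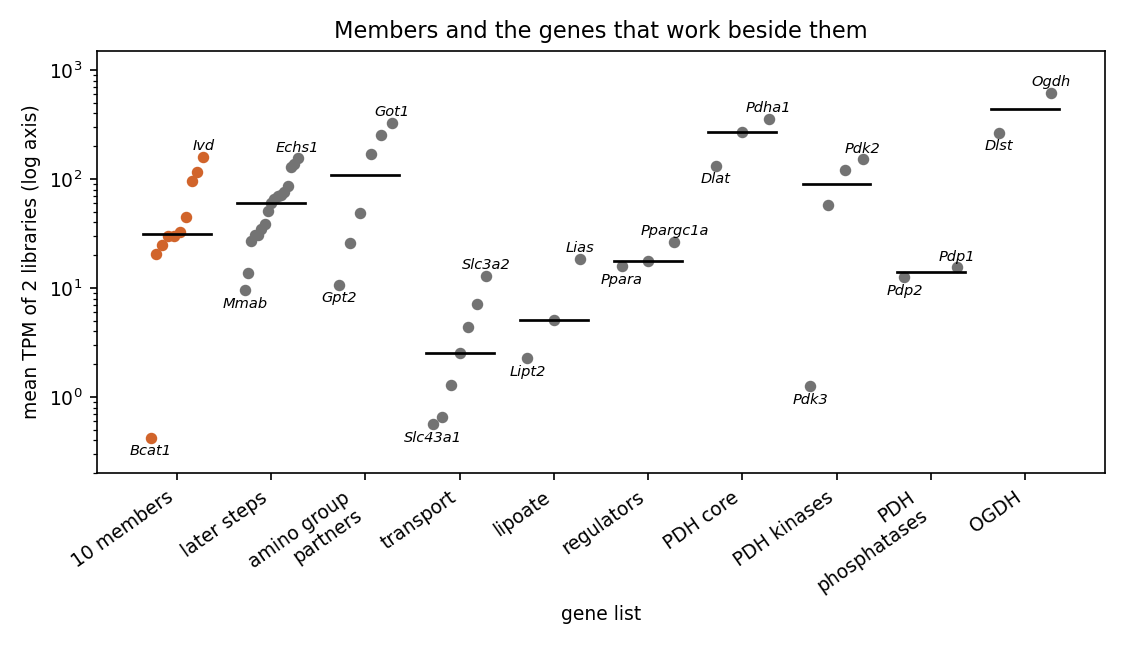
Mean TPM of 2 libraries, on a log axis, for the 10 genes and for the listed genes of related roles. Each point is 1 gene, horizontal bars are list medians, and the highest and lowest gene of each list are named. By median, transport genes lie lowest of the lists drawn at 2.54 TPM, and the 2-oxoglutarate dehydrogenase genes Ogdh and Dlst (OGDH) highest at 441 TPM, above the PDH core genes at 270 TPM.

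The 9 genes above 1 TPM had close values in both libraries. On the scale log2(TPM + 1), library 2 over library 1, they lay between -0.08 for Bcat2 and 0.05 for Ivd. Bcat1, below the filter on low values, had -0.15 on this scale, where the pseudocount of 1 is larger than its 0.35 and 0.50 TPM in library 2 and library 1. Its scaled count ratio was 1.28 (0.621 to 2.65), so no difference in Bcat1 was detectable at this depth. Of the 9 genes past the filter on low values (10 counts in a library and a mean of 1 TPM), 0 differed by 2-fold. Over all genes past it, 72 of 11940 did, which is 0.603%. The median of the 9 genes was -0.01, as was the median over all genes, and 95% of all genes lay between -0.42 and 0.44. Summed adipocyte markers were 39.4 TPM in library 2 and 10.6 TPM in library 1, with all 6 higher in library 2. Their part in the ratios of the 10 genes was not tested.

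Ratios of expected counts, scaled by the total over annotated genes, have an exact 95% interval for counting error. The interval excluded 1 for 2 of the 9 genes, and it did so for 2780 of 11940 genes in all, which is 23.3%. Acad8 had 1107 counts in library 1 and 1135 in library 2, a scaled ratio of 1.101 (1.01 to 1.20). Ivd had 13207 and 11939 counts, a scaled ratio of 0.971 (0.947 to 0.996). By the second quantification the interval of Ivd included 1, and those of Acad8, Bckdha and Ppm1k did not. In TPM both genes went the other way, with Acad8 at 21.1 and 20.1 and Ivd at 156 and 161, so no direction between libraries is given for them. Shares of their transcripts also differed between the libraries. Ivd-201 held 65.4% and 59.4% of Ivd TPM in library 1 and library 2, and Acad8-201 held 42.8% and 53.8% of Acad8 TPM.

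**Figure D3:**
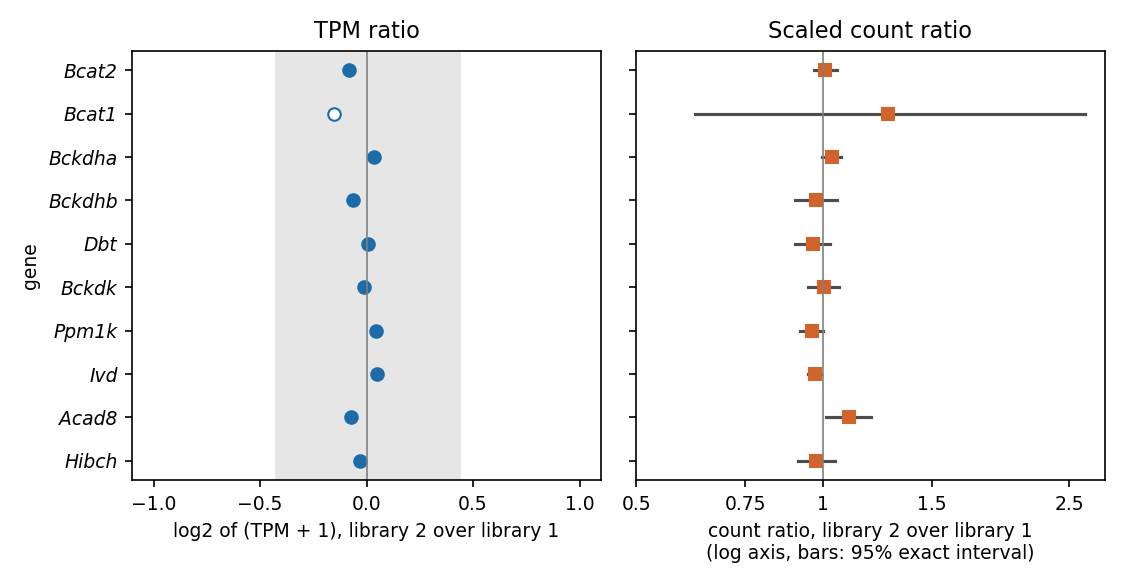
Ratio of library 2 over library 1 for each gene. On the left is log2 of TPM + 1, with the range that holds 95% of all genes shaded (-0.42 to 0.44), and on the right the scaled count ratio on a log axis with its exact 95% interval. The 9 filled points lie inside the shaded range, the open point is Bcat1, which is below the filter, and the intervals of Acad8 and Ivd do not reach 1.

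How reads were shared among the transcripts of a gene was less certain than the gene levels. The first quantification gave the count of all 10 genes a posterior SD of 0 in both libraries, as it did for 8858 of 10754 detected nuclear protein-coding genes, which is 82.4%. A posterior SD of 0 means that the count did not vary when other ways to assign the reads were sampled. In 7 of the 10 genes 1 transcript led in both libraries under both quantifications, and Bcat1, Bcat2 and Acad8 were the exceptions. Bckdha-201 held 89.4% ± 0.1 of Bckdha TPM by the first quantification and all of it by the second, and Bckdha-202 held 10.6% ± 0.1 by the first (SD, n = 2). In total RNA, incompletely spliced molecules are also sequenced.

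Bcat2 was divided differently by the 2 quantifications. Bcat2-201, which encodes 393 residues from the first exon on, held 41.3% ± 0.6 of Bcat2 TPM by the first quantification and 32.2% ± 6.5 by the second. Bcat2-208, which starts at another first exon, held 3.4% ± 4.9 by the first and 46.6% ± 12.1 by the second (SD, n = 2). The first listed Bcat2-208 at 0 and 6.41 TPM, with posterior means of 106 ± 89 and 318 ± 246 counts (posterior SD) in library 1 and library 2. Its annotated protein begins at a later ATG and has 353 residues, so it lacks the first 40 residues of Bcat2-201, where the mitochondrial targeting signal of this enzyme lies. Those 120 coding bases are shown for that reason, followed by the start codon of Bcat2-208 in capitals (GENCODE M21, mm10, chr7:45570376-45575822, plus strand, spliced).
Bcat2-201 coding start: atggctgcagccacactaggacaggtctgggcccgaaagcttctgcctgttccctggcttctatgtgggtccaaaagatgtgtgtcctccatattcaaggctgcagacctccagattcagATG

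Together with Bcat2-207, a short form that also starts outside the first coding exon, it held 15.6% ± 4.9 of Bcat2 TPM by the first quantification and 59.9% ± 12.3 by the second (SD, n = 2). This grouping of transcripts was made after their values were seen. Bcat2-203, which also has another first exon and shares their annotated start codon, held 1.2% and 0.63% and is not counted in it. In expected counts of the first quantification the pair held 3.8% and 11.8% in library 1 and library 2. By the second, Bcat2-208 alone had 1993 of 4498 estimated counts in library 1 and 2563 of 4167 in library 2. Bcat2-202 differs in coding sequence from Bcat2-201 by lacking 15 bases at the start of exon 5, in frame, and held 20.9% ± 3.2 by the first quantification and 0.45% ± 0.64 by the second. Those bases are in capitals below (chr7:45585013-45585140, spliced). Bcat2-204, which skips an exon of 86 bases and is annotated as a target of nonsense-mediated decay, held 19.3% ± 8.3 and 5.7% ± 6.4.
Bcat2-201 exon 5: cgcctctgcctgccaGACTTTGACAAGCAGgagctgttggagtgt

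Bckdk had the same leader in all 4 estimates, and it was not the form with the longest protein. Bckdk-202 held 51.3% ± 1.2 of Bckdk TPM by the first quantification and 58.5% ± 3.9 by the second, and Bckdk-201 held 16.04% ± 0.28 and 12.7% ± 0.6 (SD, n = 2). Bckdk-201 encodes 412 residues. Bckdk-202 reads on through the last intron of Bckdk-201, which is 87 bases long, and its frame ends after 365 residues, all of which it shares with Bckdk-201. The bases after the divergence are in capitals in each (chr7:127908056-127908190 for Bckdk-201 and chr7:127908056-127908103 for Bckdk-202, plus strand). The rest lay with short or partial forms that the quantifications did not share. Bckdk-203 had 21.2% by the first and was listed at 0 by the second, and Bckdk-204 was listed at 0 by the first and had 28.1% by the second. Bckdk-205 had 11.5% by the first and was listed at 0 by the second.
Bckdk-201 junction: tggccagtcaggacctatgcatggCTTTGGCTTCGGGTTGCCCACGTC
Bckdk-202 read-through: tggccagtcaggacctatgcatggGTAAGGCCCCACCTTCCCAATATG

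**Figure D4:**
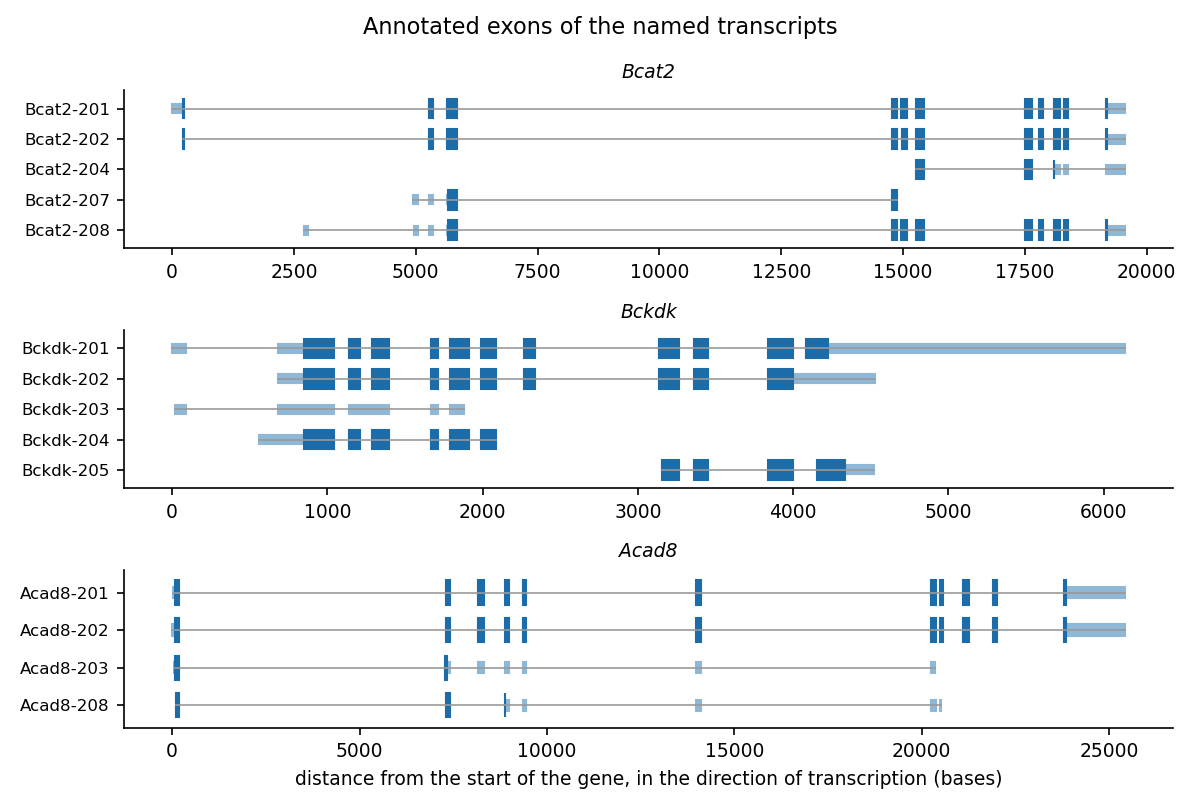
Annotated exons of the named Bcat2, Bckdk and Acad8 transcripts, to scale by distance in bases from the start of each gene in the direction of transcription. Tall dark boxes are coding, low light boxes are not, and lines are introns. Bcat2-207 and Bcat2-208 begin at other first exons than Bcat2-201, Bckdk-202 keeps the last intron of Bckdk-201 and ends within its last exon, and coding ends early in Acad8-203.

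Acad8 had a large share in a form whose reading frame ends early. Acad8-203, annotated as a target of nonsense-mediated decay, held 34.1% ± 2.9 of Acad8 TPM by the first quantification and 50.7% ± 0.4 by the second. Acad8-201, with 413 residues, held 48.3% ± 7.8 and 29.0% ± 1.2 (SD, n = 2). Acad8-208 held 11.6% by the first and was listed at 0 by the second, while Acad8-202 was listed at 0 by the first and held 16.2% by the second. Acad8-203 is annotated at 852 bases and Acad8-201 at 2859. They held 15.2% and 78.3% of the expected counts of the first quantification, a measure with no length correction. Acad8-203 has 28 extra bases where its second exon begins, which are in capitals below up to the stop codon of the shifted frame, 49 residues from the start (chr9:26992242-26999417, minus strand, spliced). With coding transcripts alone, Acad8 had 48.2% of its mean TPM, the lowest share of the 10 genes, and 7 of the 10 stayed within 1.5-fold.
Acad8-203 extra bases: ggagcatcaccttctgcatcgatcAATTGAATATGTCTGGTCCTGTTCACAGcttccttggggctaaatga

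Ivd TPM also depended on short non-coding forms. Ivd-201, the coding form, held 62.4% ± 4.2 of Ivd TPM by the first quantification and 36.5% ± 1.6 by the second (SD, n = 2). It held 90.3% of the expected counts of Ivd by the first. Ivd-206 and Ivd-207, at 606 and 1010 bases, are annotated as processed transcripts, and join the exons of Ivd-201 within the gene. Together they held 32.4% ± 2.4 of TPM by the first quantification and 58.8% ± 2.5 by the second. In expected counts of the first they held 8.0% and 9.4% in library 1 and library 2. By the second, Ivd-206 had 1164 and Ivd-207 1884 of 14674 estimated counts in library 1. In library 2 they had 993 and 1685 of 13146. Ivd-201 alone had 102 and 95.9 TPM, below Bckdha at 115 and 118 TPM, so Bckdha stands first when the coding forms of Ivd and Bckdha are compared.

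**Figure D5:**
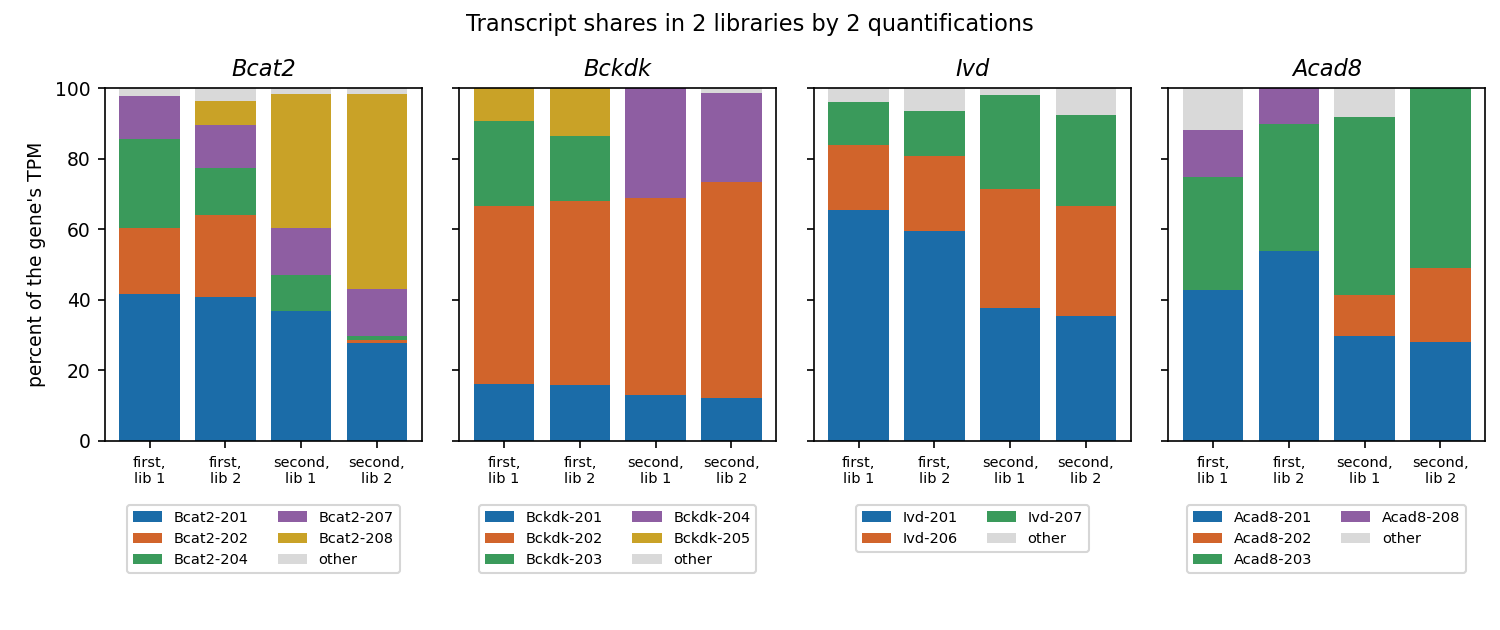
Percent of each gene's TPM held by each transcript, for both libraries by the first and second quantification. Named transcripts held at least 10% in 1 of the 4 estimates, and grey is the rest. Bckdk-202 leads throughout, while Bcat2-208 and Acad8-203 lead only by the second quantification.

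The other 4 genes above 1 TPM had 1 main coding form. Hibch-201 held 98.5% ± 1.5 by the first quantification and 71.2% ± 2.7 by the second, Ppm1k-201 held 80.3% ± 5.1 and 94.0% ± 0.4, and Dbt-201 held 69.9% ± 3.1 and 87.7% ± 11.7 (SD, n = 2). Bckdhb-201 held 80.5% ± 7.5 and 88.1% ± 1.5. Bckdhb-206 differs from it only by 5 more bases at its start, and only reads over those bases tell them apart. The annotated start codon of Bckdhb-206 lies in the first exon, giving 390 residues against 322 annotated for Bckdhb-201. That position, chr9:83925170, also lies in the first exon of Bckdhb-201, which has the same sequence from there on. The residue counts therefore differ only by the annotated start. The first quantification gave Bckdhb-201 posterior means of 753 ± 293 and 904 ± 184 counts (posterior SD) in library 1 and library 2. It listed Bckdhb-206 at 0 TPM, but with posterior means of 386 ± 287 and 205 ± 182.5 counts.

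Lesser forms of these 4 genes also differed between the quantifications. By the first, Dbt-202 held 16.4% ± 4.6, Dbt-204 11.8% ± 1.2, Bckdhb-203 14.5% ± 0.5 and Ppm1k-202 13.7% ± 3.1 of the TPM of their genes (SD, n = 2). By the second, Dbt-202 and Bckdhb-203 were listed at 0, Dbt-204 held 4.3% and Ppm1k-202 4.0%. Hibch-205 was listed at 0 by the first and held 15.3% ± 9.9 by the second (SD, n = 2). Dbt-203 and Hibch-202 reached 10% in 1 library each, both by the second.

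Genes that overlap the 10 in the annotation had few or no counts. Whether counting used strand is not given in the sources used here, so reads from opposite strands may not have been kept apart, although the library kit was directional. The antisense gene 0610005C13Rik, across the start of Bcat2, had 3 and 5 counts, and B3gnt8, opposite the end of Bckdha, had 41 and 66. Gm45193, opposite the whole of Ppm1k, had 25.6 and 10.2 counts, and the pseudogene Gm4596, within Dbt on the opposite strand, had 28.6 and 53.4. Each count is small beside the 1773 or more counts of those 4 genes in each library. In TPM, Gm4596 had 2.52 and 5.00 against 24.6 and 24.7 for Dbt, and it was listed at 0 by the second quantification. Acad8, Bckdk and Ivd overlap no other annotated gene.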

How the data were processed

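Total RNA of 2 heart libraries was prepared with a directional kit and spike-ins, per the labels. The deposited readme names mm10 and GENCODE M21 as assembly and annotation, and the sources used here name no aligner or quantification tool. CAST differs in sequence from the mm10 reference, and the effect of this on the values was not tested. The authors deposited gene and transcript tables with expected counts, TPM, a percent of the gene held by each transcript, and posterior means and SDs (first quantification), and a second transcript table with estimated counts and TPM. Per the file headers, TPM is scaled by length and to a fixed total. Transcript values of the second quantification were summed per gene. Transcript shares were computed from the deposited TPM, and transcript sequences and coding frames were read from GENCODE M21 (Biopython 1.88).

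The labels give 1 group, so no test between groups was made and no p-value computed. Means carry the SD of 2 libraries. Gene detection took 1 TPM in both libraries. The log2 ratios between libraries used a pseudocount of 1, and ratios between genes used none. Count ratios carry exact (Clopper-Pearson) 95% intervals, which cover counting error only. For scaling factors alone, edgeR 4.0.16 (TMM) and DESeq2 1.42.0 were run on rounded expected counts. Alternatives were the second quantification, coding transcripts only, counts, other detection levels, pseudocount, filter and scaling. All 10 genes are named, with the leading transcript and any with 10% or more in a library; of related lists at most the 4 highest and the lowest, and others where a ratio needs them. Gpt and Mmaa are also named, outside this rule. Hibadh, Slc25a44, Acat1 in both quantifications, the overlapping genes and the sequences were picked after values were seen. The 10 genes and all lists were chosen with earlier results of these data known. The 2-fold rule and the count interval were tested on data simulated with counting noise only, which is less spread than these libraries showed. Transcript shares, ratios between genes and the sequence steps were not tested in this way. Scripts ran in Python 3.11.15 (pandas 2.3.3, numpy 2.4.6, matplotlib 3.10.9, scipy 1.17.1) and R 4.3.3.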

Additional observations from a re-analysis of the deposited data

How the results depend on the processing

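The counts of genes at 1 TPM or more (9), past a 2-fold ratio (0), with an interval that excludes 1 (2, or 3 under TMM or DESeq2 scaling and in the second quantification, where Ivd was not among them) and with 1 leading transcript (7, or 8 with counts or coding transcripts only) changed little. In the second quantification the share of nuclear protein-coding TPM was 0.170293%, the Bckdk to Ppm1k ratio 1.69, the BCKDH to PDH core ratio 0.204, and the median log2 ratio of the genes changed sign, at 0.017 against -0.012 by the first, near 0 in both. The Ivd to Acad8 ratio of 7.71 was 11.7 in the second quantification, and Acad8 to Acadsb was 1.304 with coding transcripts only, against 0.274 with all. With coding transcripts only, Bcat2 to Bcat1 was 371, Bckdk to Ppm1k 1.37, Bckdha to Bckdhb 4.19, and the core ratio 0.235. With expected counts the share was 0.1715%, Bckdk to Ppm1k 0.549, Bckdha to Bckdhb 4.87, and the core ratio 0.174; counts are not divided by length. Over all annotated genes the share was 0.0558%. With each library alone the share was 0.169558% to 0.169602%, Bcat2 to Bcat1 198 to 267, Bckdk to Ppm1k 1.47 to 1.53, Bckdha to Bckdhb 3.45 to 3.70, the core ratio 0.229 to 0.231, genes at 1 TPM 9 in both and genes with 1 leading transcript 8 in both. The cause of these differences was not tested.

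No paired analysis was possible because the labels give 1 group. Precision is limited by 2 libraries with a shared donor identifier, by 16 and 19 counts for Bcat1, and by reads that fit several transcripts of a gene. The SD of 2 values is itself uncertain, and small SDs of ratios do not cover what both libraries share, such as the annotation and the length model.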
